A study of Mus musculus with 4 samples.

Results

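The enzymes that turn propionyl-CoA into succinyl-CoA, and the enzymes that prepare their cobalamin cofactor, were measured in mouse skeletal muscle on 1-colour Agilent arrays. The members were taken by name, as the probes whose gene name on the array is Pcca, Pccb, Mcee, Mut (now Mmut), Mmaa or Mmab. They are 6 of 27586 genes and 10 of 41174 probes. RNA came from mice at 10 weeks of age with free access to food, in 4 genotypes with 1 array each: ob/ob TBP-2-/-, ob/ob, TBP-2-/- and WT. TBP-2 is Txnip, the thioredoxin-interacting protein, and TBP-2-/- mice lack it. Mice of the ob/ob genotype lack functional leptin and become obese, and ob/ob TBP-2-/- mice carry both defects. The labels do not give the muscle, the strain, the sex, the deleted part of Txnip, or whether an RNA was from 1 animal or a pool, and the genotype field of the ob/ob sample is spelled differently from its title. With 1 array per genotype, "higher" and "lower" describe these arrays.

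Propionyl-CoA is left over from the breakdown of valine, isoleucine, methionine, threonine and odd-chain fatty acids. In mitochondria, propionyl-CoA carboxylase, built from the subunits encoded by Pcca and Pccb and dependent on biotin, makes methylmalonyl-CoA. The epimerase Mcee turns its D form into the L form, and the mutase Mmut rearranges that into succinyl-CoA, which enters the tricarboxylic acid cycle. Mmut needs adenosylcobalamin: Mmab, an adenosyltransferase, makes this form of vitamin B12, and Mmaa, a GTPase, helps load it onto the mutase and keep the mutase active. In humans, loss of these enzymes causes propionic or methylmalonic acidaemia.

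The arrays lay on 1 slide and were read in 1 scan, and no spot was saturated. Between 22667 and 24212 of the 41174 probes were well above background on an array. Txnip had processed signals of 165.5 in ob/ob TBP-2-/- and 13142.5 in ob/ob muscle, and 867.6 on the TBP-2-/- array and 13209.2 on the WT array, so its level went with the labels. Leptin (Lep), whose ob allele is still transcribed, had signals of 570, 246.5, 109.9 and 36.4 on the ob/ob TBP-2-/-, ob/ob, TBP-2-/- and WT arrays, which does not check the ob/ob label. All 8 skeletal muscle markers, Ckm, Acta1 and Myh4 among them, were well above background on every array. Of the 3 hepatocyte markers, Apoa1 and Ttr were well above background on no array and Alb on the ob/ob TBP-2-/- array only.

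Pcca, Pccb and Mcee have 1 probe each, Mmaa and Mmab 2, and Mmut 3. On mm8, the build of the array annotation, the Pccb probe lies on chromosome 9 at 100791783 to 100791842 and the Mcee probe on chromosome 7 at 64290920 to 64290979. The brighter Mmut probe lies on chromosome 17 at 40424188 to 40424252, the brighter Mmaa probe on chromosome 8 at 82163998 to 82164057, and the brighter Mmab probe on chromosome 5 at 114694063 to 114694122. The Pcca probe is annotated on chromosome 14 from 121948406 to 122011981, a span of 63576 bases, so its sequence is not contiguous in that genome. Exons and introns were not assigned here. The brightest probe stood for each gene, and it was well above background on all 4 arrays for every member. A second Mmut probe and a second Mmab probe were as well. A second Mmaa probe was close to background, and the remaining Mmut probe, designed to the clone AK051851, was well above background on no array.

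Promoter windows of 300 bases (250 before and 50 after the start of the gene, RefSeq, GRCm38.p6) were at hand for 5 of the 6 members; Mmut is named only. Those of Pcca, Pccb and Mmab are shown because these genes, like Mmut, had lower levels on both arrays without Txnip than on both arrays with it. Capitals mark the motifs searched on both strands, AAGGTCA (a nuclear receptor element), CACGTG (E-box), CCAAT and GCGCATGC (NRF1 core). No marked motif overlaps another.
Pcca, plus strand, chr14:122534078-122534377: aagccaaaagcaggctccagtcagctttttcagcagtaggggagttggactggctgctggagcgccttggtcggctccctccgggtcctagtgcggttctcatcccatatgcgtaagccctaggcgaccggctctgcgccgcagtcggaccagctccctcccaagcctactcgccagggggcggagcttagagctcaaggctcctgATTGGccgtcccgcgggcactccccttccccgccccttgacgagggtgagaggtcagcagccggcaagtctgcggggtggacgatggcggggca
Pccb, minus strand, chr9:101034835-101035134: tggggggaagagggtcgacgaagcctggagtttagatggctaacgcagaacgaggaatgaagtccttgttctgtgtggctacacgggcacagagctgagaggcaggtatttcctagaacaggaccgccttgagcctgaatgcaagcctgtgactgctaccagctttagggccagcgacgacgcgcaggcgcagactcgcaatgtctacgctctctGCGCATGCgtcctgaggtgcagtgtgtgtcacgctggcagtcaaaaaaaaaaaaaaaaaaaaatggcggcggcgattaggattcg
Mmab, minus strand, chr5:114443978-114444277: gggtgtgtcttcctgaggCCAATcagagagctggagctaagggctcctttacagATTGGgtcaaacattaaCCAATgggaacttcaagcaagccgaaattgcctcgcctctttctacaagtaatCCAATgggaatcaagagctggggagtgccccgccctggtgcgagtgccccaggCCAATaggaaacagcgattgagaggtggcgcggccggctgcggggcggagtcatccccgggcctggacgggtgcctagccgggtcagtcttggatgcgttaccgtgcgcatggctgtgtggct

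The Mmab window held CCAAT 5 times, first 232 and last 73 bases before the start. Each of 2 Pcca windows held it 1 time, 44 bases before the start on the minus strand in the window shown and 47 in the other, and the Mcee window held it 2 times. CCAAT occurs in 37.4% of all 32851 promoter windows. The Pccb window held the NRF1 core 35 bases before the start, a motif found in 2.71% of all windows. AAGGTCA (4.72% of windows) and the E-box (7.15%) were in no window of the members, and neither Mmaa window held any of the 4 motifs. A match or its absence describes these letters only.

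Transcripts of the carboxylase were lower without Txnip on both backgrounds, and most so for the alpha subunit in ob/ob muscle. Pcca, which carries the biotin, had processed signals of 650.1 on the ob/ob TBP-2-/- array and 1931 on the ob/ob array, and of 1019.8 on the TBP-2-/- array and 1617 on the WT array. Both arrays without Txnip lay below both arrays with it. After each array was scaled to its 75th percentile, Pcca was 2.51-fold lower on the ob/ob background (log2 difference -1.33 ± 0.20, standard error of the scanner's error model) and 1.74-fold lower on the lean background (-0.80 ± 0.20). Only 0.368% of 15471 genes were as low or lower in the first comparison and 1.42% of 15202 in the second. Pcca on the ob/ob background was the only member 2-fold or more lower in any of the 4 comparisons, 1 of 6, beside 0.814% of all genes.

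Pccb, the beta subunit that carries out the carboxyl transfer, had signals of 393 on the ob/ob TBP-2-/- array and 693.5 on the ob/ob array, and of 514 on the TBP-2-/- array and 749.9 on the WT array. It too separated the arrays without Txnip from those with it, by 1.49-fold on the ob/ob background (-0.58 ± 0.20) and 1.597-fold on the lean background (-0.68 ± 0.20). The subunits stood apart on the ob/ob background, where Pcca was lower than Pccb by a further -0.75 ± 0.29 on the log2 scale. On the lean background that gap was -0.12 ± 0.29, smaller than its error. The ± values come from the scanner's error model and do not cover the spread between mice. For the brightest probes of the members they were 0.204 or 0.205 in every comparison, so they hardly vary with the gene. Probes printed repeatedly had a median standard deviation of 0.0585 (WT) to 0.0666 (ob/ob TBP-2-/-) log2 within an array.

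The epimerase gene Mcee differed least with Txnip among the enzymes that act on the acyl-CoAs. Its signals were 1119.5 on the ob/ob TBP-2-/- array and 1459 on the ob/ob array, and lean values of 1562 on the TBP-2-/- array and 1896 on the WT array. Mcee was -0.14 ± 0.20 on the ob/ob background, within the error, and -0.41 ± 0.20 on the lean background. Its ob/ob arrays both lay below its lean arrays instead, though not with spike-in scaling.

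Mmut, the cobalamin-dependent mutase, had the largest difference of the members on the lean background. Its brighter probe gave 5012 on the ob/ob TBP-2-/- array and 9887 on the ob/ob array, and lean values of 7496 on the TBP-2-/- array and 12878 on the WT array. It was 1.67-fold lower without Txnip on the ob/ob background (-0.74 ± 0.20) and 1.88-fold lower on the lean background (-0.91 ± 0.20), where 1.10% of genes were as low or lower. The second probe, with 1866 and 3233 on the ob/ob TBP-2-/- and ob/ob arrays and 2354 and 4091 on the TBP-2-/- and WT arrays, gave -0.55 ± 0.20 and -0.93 ± 0.20 for the same comparisons. The probes thus agreed within the error.

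Of the cobalamin enzymes, Mmab differed with Txnip loss and Mmaa by about its error. Mmab had signals of 153 on the ob/ob TBP-2-/- array and 283 on the ob/ob array, and of 256 on the TBP-2-/- array and 392 on the WT array. Mmab was 1.57-fold lower on the ob/ob background (-0.65 ± 0.20) and 1.68-fold lower on the lean background (-0.74 ± 0.20). Its other probe gave -0.81 ± 0.20 and -0.70 ± 0.20. Mmaa had 2776 on the ob/ob TBP-2-/- array and 3805 on the ob/ob array, and lean values of 4203 on the TBP-2-/- array and 4472 on the WT array. These are differences of -0.21 ± 0.20 and -0.22 ± 0.20, and the lean one was 0.02 with spike-in scaling and 0.04 as the median over both probes. The dim Mmaa probe, with signals of 9.45, 18.9, 22.1 and 16.5 on the ob/ob TBP-2-/-, ob/ob, TBP-2-/- and WT arrays, was 0.29 ± 0.32 on the lean background and at least 1.69-fold lower on the ob/ob background. That bound sets the ob/ob TBP-2-/- spot, which was not well above background, at its own signal.

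**Figure D1:**
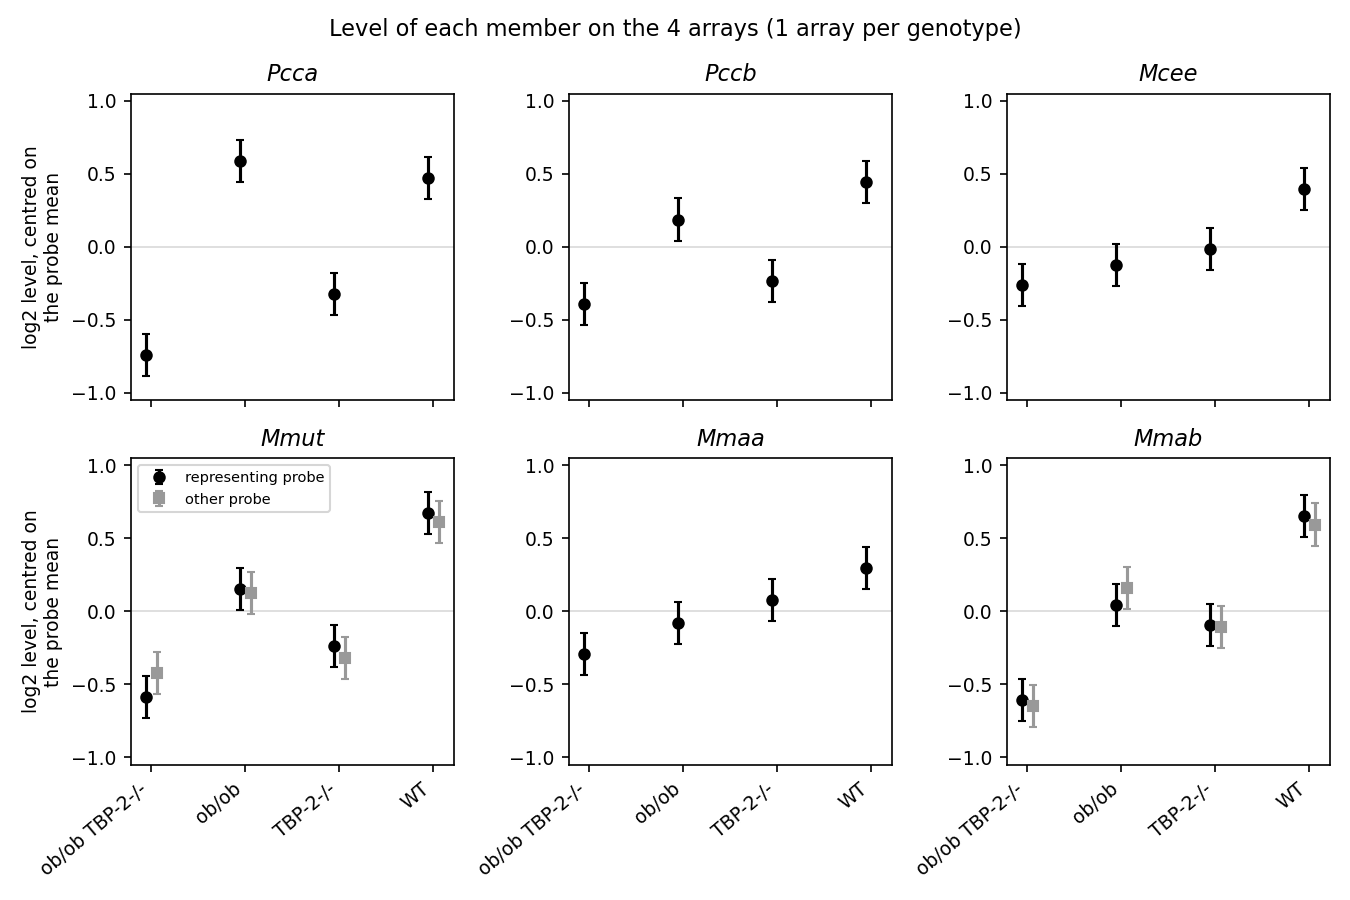
Level of each member on the 4 arrays (log2, scaled to the 75th percentile and centred on the mean of the probe), with black circles for the representing probe, grey squares for another probe well above background on all arrays, and bars for the error-model standard error of an array. For Pcca, Pccb, Mmut and Mmab both arrays without Txnip lie below both with it, and all 6 members are lowest on the ob/ob TBP-2-/- array.

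As a group, all 6 members were below 0 in both Txnip comparisons, a pattern that 30.3% of 14920 genes well above background on all arrays also showed. The median of the members was -0.61 on the ob/ob background, against 0.04 for all genes there, and -0.71 on the lean background, against -0.08 for all genes. Genes below 0 made up 44.4% and 60.3% of all genes in these comparisons. With spike-in scaling, which moved the median of all genes by -0.56 on the ob/ob and 0.24 on the lean background, 6 and 5 members stayed below 0, with Mmaa the exception. Of all genes, 92.7% and 22.5% were below 0 with that scaling. On the ob/ob background 4 members, Pcca, Pccb, Mmut and Mmab, then passed 2-fold, beside 6.68% of all genes. For 4 of 6 members both arrays without Txnip lay below both arrays with Txnip, which held for 17.9% of all genes. These pairs of arrays share no array.

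**Figure D2:**
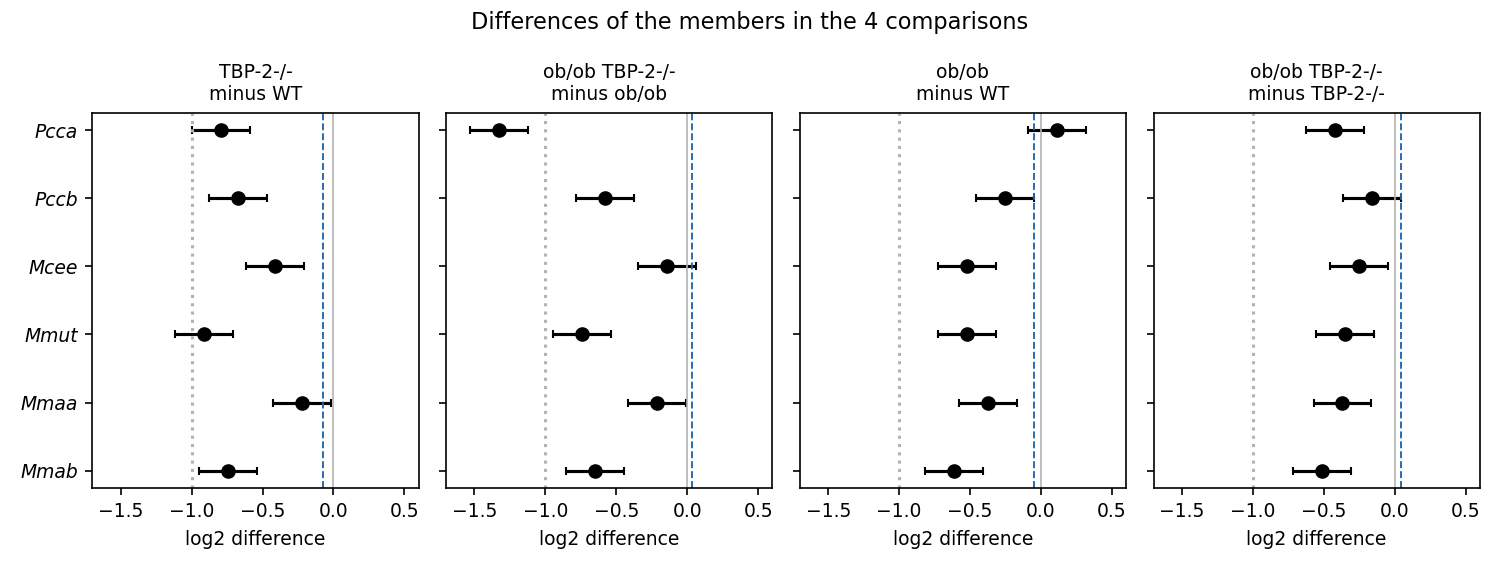
Log2 difference of each member in the 4 comparisons, with the error-model standard error as bars, a dotted line at 2-fold lower and a dashed line at the median of all genes well above background on both arrays. Pcca in ob/ob TBP-2-/- minus ob/ob muscle is the only point beyond the dotted line.

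The order of the members by size was Mmut, Pcca, Mmab, Pccb, Mcee and Mmaa on the lean background. No neighbours in that order were further apart than 0.29, the error of such a gap, while Mmut and Mmaa at its ends differed by -0.69 ± 0.29. On the ob/ob background the order was Pcca, Mmut, Mmab, Pccb, Mmaa and Mcee, and Pcca stood below the next member, Mmut, by -0.59 ± 0.29. The difference between the Txnip differences (ob/ob minus lean) was -0.53 ± 0.29 for Pcca, where 7.55% of 14920 genes were as low or lower. For the other members it ran between 0.01 for Mmaa and 0.27 for Mcee, within the error. These values rest on the brightest probes and the scaling. On the ob/ob and lean backgrounds, the second Mmut probe gave -0.55 and -0.93. The median over both Mmaa probes, 1 of them close to background, was -0.485 and 0.036, against -0.214 and -0.22 for the brighter probe. With spike-in scaling every member had a lower value on the ob/ob than on the lean background, for example Mcee at -0.699 and -0.166. That scaling moved the median of all genes by -0.56 on the ob/ob and 0.24 on the lean background, so this order is not particular to the members. With 1 array per genotype the difference between backgrounds has no test.

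**Figure D3:**
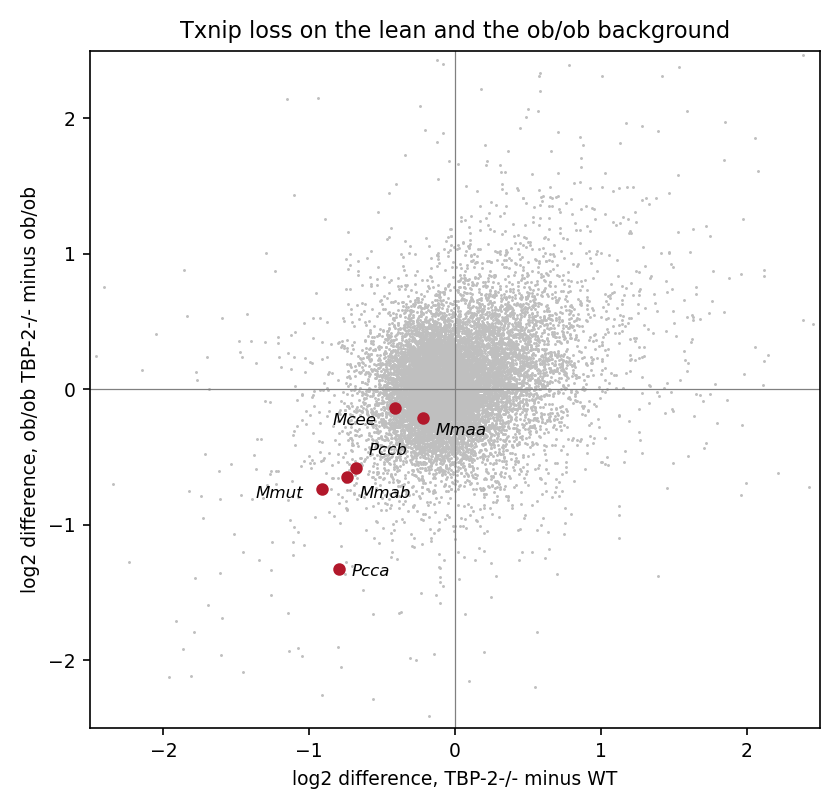
Log2 difference with Txnip loss on the lean background (x axis) and on the ob/ob background (y axis) for 14920 genes (grey; 39 lie outside the axes) and the 6 members (red). All members lie in the lower left, with Pcca furthest down.

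For the ob/ob genotype, the mean difference over both comparisons was smaller in size than that for Txnip loss in Pcca, Pccb, Mmut and Mmab. It was larger in Mcee (-0.385 against -0.275) and Mmaa (-0.371 against -0.217). With spike-in scaling it was smaller in these as well, at -0.118 against -0.432 in Mcee and -0.104 against -0.374 in Mmaa. Relative to TBP-2-/- muscle, ob/ob TBP-2-/- muscle had lower levels of all 6 members, between -0.51 ± 0.20 for Mmab and -0.16 ± 0.20 for Pccb. The median was -0.36, against 0.04 for all genes, of which 43.9% were below 0. Relative to WT muscle, ob/ob muscle had lower levels of 5 members, and the median was -0.45, against -0.05 for all genes, of which 55.6% were below 0. The lowest was again Mmab (-0.61 ± 0.20), followed by Mmut and Mcee (each -0.52 ± 0.20), Mmaa (-0.375 ± 0.20) and Pccb (-0.25 ± 0.20), and Pcca was 0.12 ± 0.20. This direction rests on the scaling: with spike-in scaling, which moved the median of all genes by 0.67, all 6 members were above 0, between 0.06 for Mmab and 0.78 for Pcca. Only 4.91% of all genes were below 0 with that scaling. In ob/ob TBP-2-/- minus TBP-2-/- muscle spike-in scaling moved the median of all genes by -0.13. It left all 6 members below 0, beside 62.3% of all genes. No member reached 2-fold here, while the share of genes 2-fold or more lower was 1.74% for ob/ob minus WT muscle and 1.56% for ob/ob TBP-2-/- minus TBP-2-/- muscle (0.881% for TBP-2-/- minus WT muscle).

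Mcee and Mmaa were the members, 2 of 6, with both ob/ob arrays below both lean arrays, which 21.5% of all genes showed. All 6 members were lowest on the ob/ob TBP-2-/- array, as were 24.5% of all genes. All but Pcca were highest on the WT array, for which the share of all genes was not counted. The mean log2 level of the mitochondrial content list described below was also lowest on ob/ob TBP-2-/- (7.159) and highest on WT (7.675). The span over the 4 arrays was 2.51-fold for Pcca, 2.40-fold for Mmut, 2.39-fold for Mmab, 1.78-fold for Pccb, 1.58-fold for Mcee and 1.503-fold for Mmaa.

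The members were chosen with earlier results of these data known, so their counts beside the shares of all genes do not test the set. Both genotypes were entered as additive terms in a limma model of the 4 arrays, which has 1 residual degree of freedom and takes as its error the departure from additivity, moderated over 16129 genes. By this test none of the 6 members passed a Benjamini-Hochberg adjusted p of 0.05 for either genotype. For Txnip the fitted difference was largest for Pcca (-1.06 ± 0.20, limma's standard error), with an adjusted p of 0.265 and a range of 0.128 to 0.797 over the settings tried. It was -0.83 ± 0.17 for Mmut (limma adjusted p = 0.279), -0.70 ± 0.16 for Mmab (0.307) and -0.63 ± 0.16 for Pccb (0.343). Mcee and Mmaa had -0.28 ± 0.17 and -0.22 ± 0.16, with limma adjusted p of 0.706 and 0.768. At an unadjusted p under 0.05, 4 of 6 members were lower for Txnip, beside 2.67% of all genes, and adjusted calls on the lower side made up 0.0434% of all genes. For ob/ob the fitted differences lay between -0.56 ± 0.16 for Mmab (limma adjusted p = 0.273) and -0.15 ± 0.20 for Pcca (0.803), which was 0.12 with spike-in scaling. Unadjusted, 2 of 6, Mmut and Mmab, were lower for ob/ob, beside 6.09% of all genes, with adjusted calls on the lower side at 0.124%.

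Upstream of these enzymes, transcripts of the valine and isoleucine steps that lead to propionyl-CoA were lower without Txnip as well. All 12 genes of that list were below 0 on both backgrounds, with a median of -0.78 on the ob/ob and -0.69 on the lean background. The aminotransferase gene Bcat2 was 3.79-fold lower on the ob/ob and 3.65-fold lower on the lean background. For the branched-chain dehydrogenase subunit genes the values were 3.46-fold on each background for Bckdhb, and 3.02-fold and 3.23-fold for Dbt. Acadsb, the dehydrogenase of the isoleucine branch, was 2.30-fold and 2.74-fold lower. None of the 12 passed the limma test for Txnip (lowest adjusted p = 0.0771, for Bcat2), and 8 had an unadjusted p under 0.05, all lower. For the ob/ob genotype these genes had medians near 0, -0.05 without and -0.13 with Txnip. The members had -0.36 and -0.45 there, a contrast that was not tested. A mitochondrial content list, described below, had -0.28 and -0.25, so lower values for ob/ob were not particular to the members.

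Genes of cobalamin uptake and handling outside mitochondrial adenosylcobalamin synthesis showed no common direction. Of 12 genes, 10 were well above background, and their medians were -0.10 on the ob/ob and -0.06 on the lean background, with 7 and 5 of 10 below 0. Neither direction had a 2-fold difference, and the limma test for Txnip called 0 of 10 (unadjusted, 1 was higher). Mtr, methionine synthase, the other enzyme that needs cobalamin, is given here after its values were seen: it was -0.17 ± 0.21 and 0.04 ± 0.21 for Txnip on the ob/ob and lean backgrounds. Among 4 other enzymes of propionyl or methylmalonyl groups, the 3 well above background had medians of -0.23 and -0.13, with 0 of 3 called by limma at either level.

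Among the other biotin enzymes and genes of biotin supply, medians were near 0 (0.05 on the ob/ob and -0.18 on the lean background) and single genes went opposite ways. Mccc2, a subunit of the biotin enzyme of leucine breakdown, was 2.58-fold and 1.69-fold lower without Txnip on these backgrounds. Acaca, the biotin enzyme that opens fatty acid synthesis, was 2.81-fold and 2.01-fold higher. Of the 8 genes limma called 0 for Txnip, with 2 lower and 1 higher at an unadjusted p under 0.05. Where succinyl-CoA is made or used, 7 genes had medians of -0.44 and -0.21. Only Oxct1, which spends succinyl-CoA to activate ketone bodies, passed 2-fold, at 4.33-fold and 3.51-fold lower (limma adjusted p = 0.0835; 0 of 7 called, 2 lower unadjusted).

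**Figure D4:**
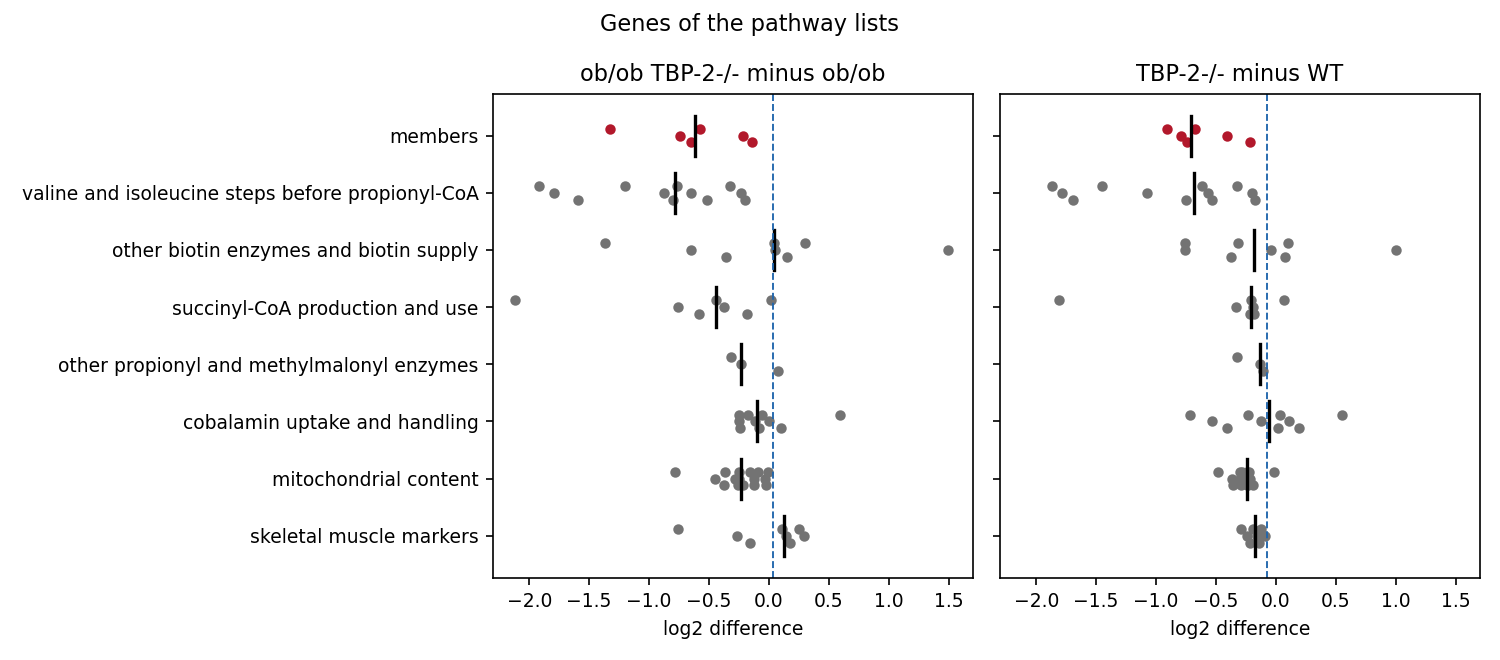
Log2 differences with Txnip loss of single genes in the lists named at the left (points), with the median of a list as a black bar and the median of all genes as a dashed line, on the ob/ob background (left panel) and the lean background (right panel). The members and the valine and isoleucine steps have medians of -0.61 and -0.78 in the left panel, while cobalamin uptake and handling stays near 0.

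Transcript levels of nuclear genes for mitochondrial proteins moved with the members. All 16 genes of a mitochondrial content list, Cs, Sdha and Cox4i1 among them, were below 0 on both backgrounds with Txnip loss, with medians of -0.23 on the ob/ob and -0.25 on the lean background, and none reached 2-fold. For ob/ob the medians of the list were -0.28 without and -0.25 with Txnip, with 15 and 16 of 16 genes below 0. Taken relative to that list, a setting chosen after the data were seen, the medians of the members were -0.38 and -0.46 for Txnip loss, and -0.08 and -0.20 for ob/ob without and with Txnip. In bulk muscle, fewer cells of a type and less RNA per cell cannot be told apart. Skeletal muscle markers had medians of 0.12 on the ob/ob and -0.175 on the lean background.

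Markers of several other cell types had higher levels without Txnip. All 7 adipocyte markers were higher without Txnip, with a summed scaled signal of 257 on the ob/ob TBP-2-/- array and 139 on the ob/ob array, and of 324 on the TBP-2-/- array and 214 on the WT array. All 5 macrophage markers were higher too, with sums of 67.7 against 56.8 on the ob/ob background and 75.2 against 57.9 on the lean background. The 5 Schwann cell markers had sums of 40.4 against 26.9 and 34.9 against 15.2. The 6 tendon markers stood apart on the WT array, with a sum of 21.6 beside 65.7 to 123 on the other arrays. These sums are in multiples of each array's 75th percentile, and the brightest markers weigh most in them. The mean log2 level of the adipocyte markers was 3.458 on the ob/ob TBP-2-/-, 2.187 on the ob/ob, 3.048 on the TBP-2-/- and 2.168 on the WT array. In ob/ob minus WT muscle these markers went opposite ways, with 3 of 7 below 0. There Cfd was 10.45-fold lower and Lep 6.146-fold higher. The 4 endothelial markers ranged between 8.77 and 9.92 in sum. Their part in the differences of the members was not tested.

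Genes with the most similar pattern were found by the Euclidean distance between the 4 log2 levels, each centred on the mean of its gene, among 12595 named genes well above background on all arrays. This was done for the members that spanned 2-fold or more, and each distance rests on 4 arrays. Nearest to Pcca were Ehhadh (0.16), Slc25a33 (0.18) and Slc25a35 (0.31). Ehhadh had signals of 103 and 271 on the ob/ob TBP-2-/- and ob/ob arrays and of 163 and 257 on the TBP-2-/- and WT arrays. Nearest to Mmut were Cst6 (0.09), Alkbh7 (0.10) and Mterf2 (0.12), and nearest to Mmab were Alkbh7 (0.10), Dusp7 (0.12) and Casr (0.13). Casr was dim, with signals of 21.75, 37.84, 36.19 and 59.26 on the ob/ob TBP-2-/-, ob/ob, TBP-2-/- and WT arrays. Mmab ranked 6 among the genes nearest to Mmut, at 0.18, and Mmut ranked 9 among those nearest to Mmab. Pccb ranked 76 for Pcca, 27 for Mmut and 81 for Mmab. Mcee ranked 1635, 359 and 256 for these genes in the same order, and Mmaa 1641, 655 and 452. Pcca ranked 231 for Mmut and 1250 for Mmab, farther from Mmab than Mcee or Mmaa.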

How the data were processed

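Per the labels' protocols, RNA from muscle held overnight in RNAlater was purified (RNeasy Fibrous Tissue kit) and 0.5 micrograms gave Cy3-labelled cRNA. Spot intensity values were produced by the authors with Agilent Feature Extraction 9.5.3.1, per the file headers and the submitters' processing notes. In the deposited processed signal, background and spatial trend are already removed, and arrays are not scaled to each other. The authors also deposited a log2 value table of the same arrays. Compared with the scanner signals, it is scaled at the 75th percentile and centred on the median of each probe (column medians 0.091, -0.062, -0.012 and 0.009 for WT, TBP-2-/-, ob/ob and ob/ob TBP-2-/-), so it keeps differences and no levels.

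Here log2 processed signals were averaged over the spots of a probe, outlier spots (59 to 110 per array) were left out, and each array's 75th percentile over 41174 probes (signals of 261 to 309) was subtracted. Probes were named by RefSeq accession (24375), symbol (6301) or synonym (2426) in a GRCm38.p6 table, or kept their name (8072). The brightest probe stood for a gene. For a pairwise comparison, a gene had to be well above background on each array. The standard error comes from the scanner's error model; with 1 array per genotype, their number sets the precision. The additive fit used limma 3.58.1 (lmFit and eBayes, 3.691 prior degrees of freedom) in R 4.3.3. It took genes well above background on 2 arrays or more. A run on simulated data drew its errors from the fit's own prior, so it cannot check whether departure from additivity is a fair error. The p-values of the fit do not measure the spread between mice.

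The members and lists were chosen with earlier results of these data known. Named besides the members are up to 4 genes of a list that were 2-fold or more different in a comparison, and the 3 genes of most similar pattern for each member that spanned 2-fold. Txnip and Lep are named as checks of the labels. Outside this rule, Mtr was named after its values were seen, and some marker genes (Ckm, Acta1, Myh4, Cs, Sdha, Cox4i1, Apoa1, Ttr, Alb) are named to illustrate their lists. Alternatives were quantile normalization, normexp background correction (offset 50), spike-in scaling (8 probes), the median over a gene's probes, the authors' table and other filters on dim probes.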

Additional observations from a re-analysis of the deposited data

Results flagged for a closer look

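Pcca in ob/ob muscle stood out because the ob/ob genotype went with opposite signs with and without Txnip. The log2 difference was -0.42 ± 0.20 in ob/ob TBP-2-/- minus TBP-2-/- muscle and 0.12 ± 0.20 in ob/ob minus WT muscle, where the value is within its error. Their difference, -0.53 ± 0.29, is the same quantity as the difference between the Txnip differences of Pcca given above. With 1 array per genotype it was not tested. With spike-in scaling all 6 members had opposite signs in these comparisons, above 0 with Txnip and below 0 without it. That scaling left only 4.91% of all genes below 0 in ob/ob minus WT muscle. In ob/ob TBP-2-/- minus TBP-2-/- muscle it put 62.3% of all genes below 0, so these signs are not particular to the members.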

How the results depend on the processing

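No paired analysis was possible because each genotype had 1 array, and for the same reason no array could be left out of the fit. The member medians below 0 stayed below 0 under every setting tried except spike-in scaling of ob/ob minus WT (0.22); spike-in scaling also moved the median to -0.47 in TBP-2-/- minus WT and -1.17 in ob/ob TBP-2-/- minus ob/ob muscle. Relative to the mitochondrial content list, added after seeing the data, the medians for Txnip loss were -0.464 on the lean and -0.384 on the ob/ob background, and those for ob/ob were -0.195 with and -0.078 without Txnip. No member passed the limma test under any of 8 settings. Spike-in scaling turned the fitted ob/ob difference of Pcca to 0.12 (adjusted p = 0.989) and of Pccb to 0.06 (0.991), against a range over settings of 0.785 to 1.0 for Pcca and 0.455 to 1.0 for Pccb.

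Counts of genes 2-fold or more different, higher and then lower, were 265 and 134 in TBP-2-/- minus WT, 296 and 126 in ob/ob TBP-2-/- minus ob/ob, 283 and 262 in ob/ob minus WT, and 280 and 244 in ob/ob TBP-2-/- minus TBP-2-/- muscle. In the same order they were 87 and 51, 103 and 60, 87 and 91, and 95 and 109 with normexp, and 1308 and 901, 1393 and 738, 1167 and 1131, and 1367 and 1093 with no filter on dim probes, which tests more genes. With spike-in scaling the first 3 were 501 and 85, 77 and 1033, and 2251 and 69. The median over probes gave 199 lower genes in ob/ob TBP-2-/- minus ob/ob muscle. The additive fit called 16 genes for Txnip and 36 for ob/ob. It called 0 and 0 with quantile normalization, 40 and 79 with normexp, 89 and 216 with spike-in scaling, 36 and 121 for genes above background on all 4 arrays, 7 and 0 with no filter, and 16 for ob/ob with the median over probes. Apart from the wider filter, the cause was not tested. Signal over background limits only the dim Mmaa probe and the AK051851 probe of Mmut.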
